A study of Mus musculus with 6 samples.

Results

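The 10 genes described here are markers of macrophages, the phagocytes that live in or enter a tissue, together with the genes of complement C1q. They were taken by symbol from the deposited gene table of a skeletal muscle RNA-seq study, which lists 14617 genes, and all 10 were found: C1qa, C1qb, C1qc, Csf1r, Cd14, Mrc1, Cd163, Cd68, Lyz2 and Ctss. The study compared the tibialis anterior, a fast muscle of the lower leg, of Prmt7-null mice (KO, genotype PRMT7-/-) and wild-type mice (WT, genotype PRMT7+/+), both of strain C57BL/6 and aged 8 months, with 3 mice per genotype in the labels. Prmt7 encodes a protein arginine methyltransferase. No treatment is named. The sources used here do not give the kind of null allele, the deleted part of the gene or whether every cell lacks it.

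C1q is the recognition molecule of the classical complement pathway. It is built from 3 chains, A, B and C, encoded by C1qa, C1qb and C1qc, and it binds antibody complexes and dying cells, after which the proteases C1r and C1s cleave the next components of the cascade. Unlike most complement proteins, which come largely from the liver, C1q is made mainly by macrophages and related myeloid cells within tissues. In muscle, macrophages clear damaged fibres and support regeneration, and in resting muscle a resident population sits between the fibres and around vessels.

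The deposited table gives a mean normalized read count per genotype. Each mean was a sum with a single whole-number solution, that of 2 libraries, so values are given for KO library 1 and 2 and WT library 1 and 2, which carry no mouse number. No header names a genotype. The second column of means was taken as KO because the table is named WT before KO, and all directions below depend on that. Depth was 22629288 to 24814798 counts a library. In each genotype the library with more counts was numbered 1. The same number in KO and WT therefore marks no shared mouse, batch or pair. The tissue was skeletal muscle, as labelled, with 708866 to 884342 normalized counts of the skeletal actin gene Acta1 in each library. Which muscle was sampled was not checked. Prmt7 itself had 706 and 718 normalized counts in the KO libraries and 885 and 844 in the WT libraries (log2 ratio -0.28, FDR 0.587 in the authors' deposited table); since the deleted part is not given, this does not check the genotype. The libraries also stood apart in sex-linked transcripts: Xist, made from the inactive X chromosome of female cells, had 2 and 1 counts in the KO libraries and 10829 and 10858 in the WT libraries, and transcripts of the Y chromosome (Kdm5d, Uty, Eif2s3y and Ddx3y) were detected in KO library 2 alone. The labels give no sex. Xist splits the 4 libraries as genotype does, so sex and genotype cannot be told apart in any value below. The KO libraries differed from each other in Y transcripts, and differences between them below cannot be told apart from that.

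None of the 10 genes passed an FDR of 0.05 in the authors' deposited table, where 2.71% of all listed genes did, 1.01% higher and 1.7% lower in KO. In that authors' deposited table the members' FDR ran between 0.576 for C1qb and 1 for Cd14, and 0 of the 10 had an unadjusted p under 0.05, against 11.1% of listed genes. The log2 ratio of KO over WT was above 0 for 9 of the 10, all but Cd163, and its median was 0.21, against 0.01 for all listed genes, of which 50.9% lay above 0. A limma fit to the recovered libraries (log2 of the normalized count plus 1, adjusted over 14053 genes) also called 0 of the 10 at an adjusted p of 0.05, where 0.889% of the genes fitted were called. Without adjustment 1 member, C1qb, had a limma p under 0.05, against 19.6% of genes. With 2 against 2 libraries an exact two-sided permutation test of a single gene cannot go below p = 0.333. As whole muscle was sequenced, a difference in the number of macrophages and a difference in RNA per cell cannot be told apart.

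The members varied together between libraries of the same genotype. Each of the 10 was higher in KO library 1 than in KO library 2, by 1.06-fold to 2.0-fold with a median of 1.32-fold, and each was higher in WT library 1 than in WT library 2, by 1.36-fold to 1.97-fold with a median of 1.48-fold. Among the 12100 genes whose mean reached 50 normalized counts, the median fold was 1.0 in both pairs, and 30.7% were higher in library 1 of both genotypes. Summed over the members, the normalized counts were 16112.5 and 12532 in the KO libraries and 15004 and 9613 in the WT libraries. As a share of the counts over listed genes, the members took 0.0715% (95% Wilson interval 0.0705 to 0.0726%) and 0.0532% (0.0522 to 0.0541%) in the KO libraries, and 0.0635% (0.0625 to 0.0645%) and 0.0399% (0.0391 to 0.0408%) in the WT libraries. The libraries of a genotype therefore differed by more than counting error, and the lower KO library lay between the WT libraries. For all 10 members the larger of the differences within a genotype exceeded the log2 ratio between genotypes, as it did for 60.6% of the 12100 genes. The order from low to high was WT library 2, KO library 2, WT library 1 and KO library 1 for 7 of the 10 members, an order found in 4.17% of the 12100 genes. The median log2 ratio of the members depended on single libraries: it was 0.04 without KO library 1, 0.34 without KO library 2, 0.60 without WT library 1 and -0.13 without WT library 2.

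**Figure D1:**
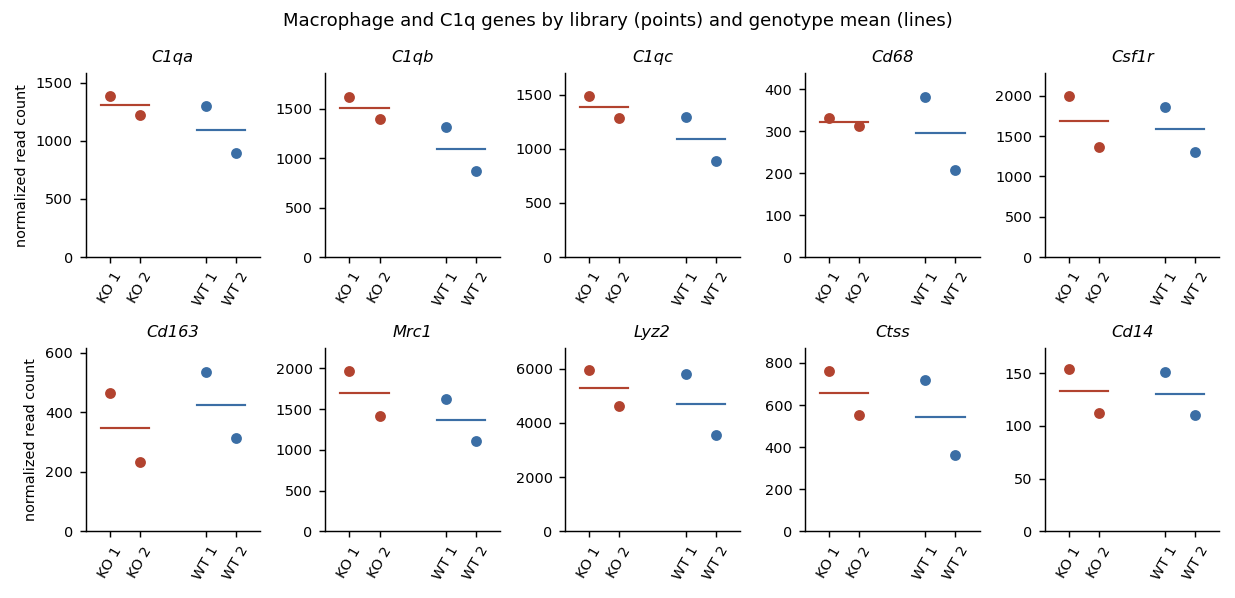
Normalized read counts (y axes, from 0, a scale of its own for each gene) of the 10 genes in KO library 1 and 2 (red) and WT library 1 and 2 (blue), with points for libraries and lines for genotype means. In each panel library 1 lies above library 2 in both genotypes, and C1qb is the only gene whose KO points both lie above both WT points.

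The C1q genes lie together on the minus strand of chromosome 4 within 18700 bases in mm10: C1qb at 136880145 to 136886177, C1qc at 136889802 to 136892914 and C1qa at 136895916 to 136898844, with gaps of 3624 and 3001 bases. C1qb, the B chain, had 1624 and 1401 normalized counts in the KO libraries and 1314 and 875 in the WT libraries. It was the only member whose genotypes did not overlap, which was also so for 52.7% of the 12100 genes, 24.6% with KO higher. Its mean was 1513 ± 158 in KO and 1095 ± 311 in WT (SD, n = 2 libraries each), with a log2 ratio of 0.47 (FDR 0.576) in the authors' deposited table. The limma difference was 0.49 ± 0.196 (SE) on the log2 scale, with an unadjusted p of 0.0435 and an adjusted p of 0.242, and its 95% interval of 0.02 to 0.96 is not adjusted for the number of genes.

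C1qc, the C chain, had 1485 and 1282 normalized counts in the KO libraries and 1297 and 884 in the WT libraries. KO library 2 lay just below WT library 1, so the genotypes overlapped; the limma difference was 0.37 ± 0.187 (SE, adjusted p = 0.343). C1qa, the A chain, had 1389 and 1227 in the KO libraries and 1299 and 896 in the WT libraries. Its genotypes overlapped further, with a limma difference of 0.27 ± 0.18 (SE, adjusted p = 0.455). The log2 ratios of C1qc and C1qa in the authors' deposited table were 0.34 (FDR 0.771) and 0.25 (FDR 0.872). For all 3 chains, and also for Mrc1, the log2 ratio stayed above 0 when any single library was left out. The chains' median was 0.09 without WT library 2, where C1qa was at 0.01, and 0.65 without WT library 1. How many of all genes kept their sign in this way was not counted. The genes on either side of the cluster within 200000 bases that are listed were Ephb2, an ephrin receptor, with 195 and 98.0 normalized counts in KO and 86.8 and 57.4 in WT (log2 ratio 1.02, FDR 0.660 in the authors' deposited table), and Zbtb40, with 286 and 227 in KO and 285 and 298 in WT (log2 ratio -0.18, FDR 0.921 in that authors' deposited table). Ephb2 had the same library order as C1qb, higher in both KO libraries than in either WT library, and Zbtb40 had the order of none of the C1q genes.

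The chains were close to equal in counts within a library, which allows their proportions to be compared free of library scaling, a comparison chosen after the values were seen. The ratio of C1qb to C1qa counts was 1.17 (95% Wilson interval 1.09 to 1.25) and 1.14 (1.06 to 1.23) in the KO libraries, and 1.01 (0.938 to 1.09) and 0.976 (0.887 to 1.07) in the WT libraries. Both KO ratios lay above both WT ratios. The intervals, which cover counting error alone, did not overlap between KO library 1 and WT library 2 and overlapped in the other pairs of a KO and a WT library. The ratio of C1qb to C1qc was 1.09 in each KO library, and 1.01 and 0.990 in the WT libraries. C1qc to C1qa gave 1.07 and 1.04 in the KO libraries, and 0.998 and 0.986 in the WT libraries. All 3 ratios thus lay higher in both KO libraries, but they are not separate results, since C1qb to C1qa is the product of the other ratios. With 2 libraries per genotype the smallest exact permutation p for each is 0.333. How often the ratio of other gene pairs separates the genotypes was not examined.

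**Figure D2:**
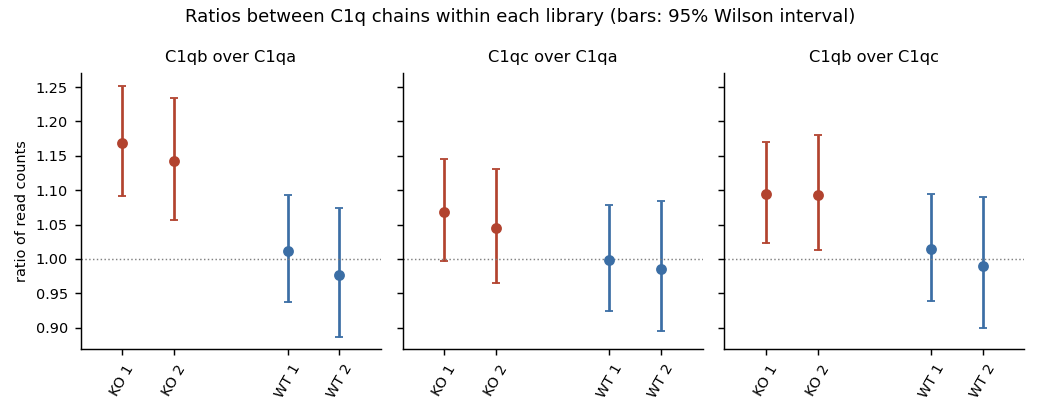
Ratios of read counts (y axis, not from 0) between pairs of C1q chains in KO library 1 and 2 (red) and WT library 1 and 2 (blue), with 95% Wilson intervals as bars and a dotted line at 1. C1qb over C1qa was 1.17 and 1.14 in the KO libraries and 1.01 and 0.976 in the WT libraries, and the other pairs differed less.

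Promoter sequence is shown for the members that carry a short motif of ETS-family factors, since such factors, PU.1 (encoded by Spi1) among them, are known to drive macrophage genes. The 250 bases before the start were searched in RefSeq promoter entries (build GRCm38.p6) for GGAAGT and its other strand ACTTCC, a motif chosen with the sequences in view. C1qa, Csf1r and Cd14 were not among the members searched. Of the 7 members searched, 4 held a match, and Cd68, Cd163 and Ctss did not have these letters in the window. The letters occurred in 19.7% of 32851 promoters and in 22.7% of the 10900 listed genes with an entry. As the motif was picked from these sequences, the shares cannot test whether the members hold it more often. The match began 53 bases before the start in C1qb and 195 bases before it in C1qc, shown whole (chr4:136886201-136886450 and chr4:136892915-136893164, minus strand), and 211 bases before it in Mrc1 (chr2:14229191-14229220, plus strand) and 100 bases before it in Lyz2 (chr10:117282355-117282384, minus strand), shown with 12 bases to either side. Capitals mark the motif.
C1qb: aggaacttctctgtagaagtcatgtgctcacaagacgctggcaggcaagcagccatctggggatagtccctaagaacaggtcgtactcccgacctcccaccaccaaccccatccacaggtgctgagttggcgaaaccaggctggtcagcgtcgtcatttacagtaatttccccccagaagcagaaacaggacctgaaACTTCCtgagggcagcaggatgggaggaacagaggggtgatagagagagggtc
C1qc: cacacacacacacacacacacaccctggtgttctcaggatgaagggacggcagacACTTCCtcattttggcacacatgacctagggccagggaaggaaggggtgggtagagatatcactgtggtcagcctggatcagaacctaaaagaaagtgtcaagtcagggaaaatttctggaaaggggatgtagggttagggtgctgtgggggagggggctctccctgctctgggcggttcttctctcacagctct
Mrc1: tcacttctccccACTTCCtgcgttttctcc
Lyz2: agatcggtaggaACTTCCtgttttgcacac
Spi1 itself had 191 and 188 normalized counts in the KO libraries and 177 and 129 in the WT libraries, a log2 ratio of 0.31 (FDR 0.811) in the authors' deposited table. A match is a description of the letters and was not tested as a binding site.

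Among the receptors, Csf1r, the receptor for the macrophage growth factor CSF1 (chromosome 18, 61105572 to 61131139), had 2002 and 1363 normalized counts in the KO libraries and 1867 and 1305 in the WT libraries. The pairs interleaved, KO library 1 highest and WT library 2 lowest, and the means were 1683 ± 452 in KO and 1586 ± 398 in WT (SD, n = 2 libraries each). Its limma difference was 0.08 ± 0.235 (SE, adjusted p = 0.885), with a 95% interval of 0.71-fold to 1.57-fold. Cd14, the receptor that hands bacterial lipopolysaccharide to TLR4 (chromosome 18, 36725067 to 36726654), was the member with the fewest counts, at 153 and 112 in the KO libraries and 151 and 111 in the WT libraries. The genotypes were nearly superimposed, with a limma difference of 0.03 ± 0.234 (SE, adjusted p = 0.968). Its 95% interval of 0.70-fold to 1.49-fold does not exclude differences within that range.

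Mrc1, the mannose receptor CD206, an endocytic lectin of resident and repair-type macrophages (chromosome 2, 14229414 to 14332023), had 1970.4 and 1420.0 normalized counts in the KO libraries and 1621 and 1105 in the WT libraries. Its limma difference was 0.32 ± 0.224 (SE, adjusted p = 0.485), with overlapping genotypes. Cd163, the receptor that takes up haemoglobin bound to haptoglobin (chromosome 6, 124304651 to 124330527), was the one member with a negative log2 ratio, with 465 and 232 normalized counts in the KO libraries and 537 and 315 in the WT libraries. KO library 2 was its lowest library and WT library 1 its highest, and the limma difference of -0.32 ± 0.438 (SE, adjusted p = 0.741) had the widest error of the 10. Cd163 also had the largest fold between KO libraries, 2.0, and its log2 ratio turned to 0.13 without KO library 2 and to 0.15 without WT library 1. In the authors' deposited table the log2 ratio was 0.31 for Mrc1 (FDR 0.888) and -0.29 for Cd163 (FDR 0.972).

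Among the genes of lysosomes and granules, Cd68, a lysosomal membrane glycoprotein widely used to stain macrophages (chromosome 11, 69664213 to 69666170), had 331 and 311 normalized counts in the KO libraries and 382 and 206 in the WT libraries. Both KO libraries lay between the WT libraries, and the limma difference was 0.19 ± 0.276 (SE, adjusted p = 0.752). Ctss, the protease cathepsin S, which trims the invariant chain of MHC class II (chromosome 3, 95526786 to 95556405), had 760.0 and 552 in the KO libraries and 717 and 365 in the WT libraries. Its WT libraries differed 1.97-fold, the widest WT spread among the members, and the limma difference was 0.34 ± 0.37 (SE, adjusted p = 0.674).

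Lyz2, the lysozyme of myeloid cells (chromosome 10, 117277541 to 117282272), was the most abundant member, with 5933 and 4630.2 normalized counts in the KO libraries and 5820.4 and 3552 in the WT libraries. KO library 1 and WT library 1 were close to equal and the limma difference was 0.21 ± 0.248 (SE, adjusted p = 0.696). The neighbouring Lyz1, 5522 bases away, is a near-identical copy, so how reads were shared between them is uncertain. Lyz1 had 1313 and 986 normalized counts in the KO libraries and 1130.0 and 591 in the WT libraries, in the same library order as Lyz2, with a log2 ratio of 0.42 (FDR 0.884) in the authors' deposited table. The log2 ratios of Cd68, Ctss and Lyz2 in that authors' deposited table were 0.13 (FDR 0.993), 0.28 (FDR 0.964) and 0.17 (FDR 0.971), and each was below 0 when WT library 2 was left out, by which Csf1r and Cd14 turned too.

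**Figure D3:**
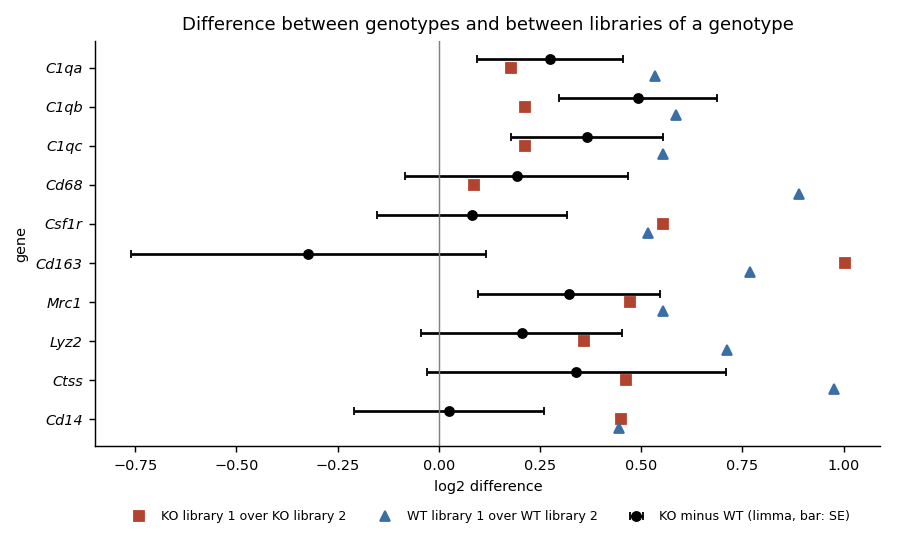
Log2 differences (x axis) for the 10 genes: KO minus WT from limma with its SE (black), KO library 1 over KO library 2 (red squares) and WT library 1 over WT library 2 (blue triangles). All squares and triangles lie right of 0, and for each gene at least 1 of them lies farther from 0 than the difference between genotypes.

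Compared per kilobase of the principal transcript, Lyz2 stood highest, with a mean of 4013 normalized counts per kilobase in KO and 3561 in WT. The C1q chains came next, C1qb at 1391 in KO and 1006 in WT, C1qa at 1258 in KO and 1055 in WT, and C1qc at 1149.8 in KO and 906 in WT. Below them, per kilobase, were Ctss with 484 in KO and 399 in WT, Csf1r with 358 in KO and 337 in WT, Mrc1 with 315 in KO and 254 in WT and Cd68 with 261 in KO and 239 in WT. Cd14, with 81.0 in KO and 79.6 in WT, and Cd163, with 79.1 in KO and 96.7 in WT, were lowest. Neighbours among the C1q chains, among Ctss, Csf1r, Mrc1 and Cd68, and between Cd14 and Cd163 overlapped in their library values, while Lyz2 lay above every C1q value. The place of C1qc depended on the length used, since over all its annotated exons it had 716 per kilobase in KO and 565 in WT.

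Because the members moved together between libraries, each was also expressed relative to the mean log2 level of the other 9 in the same library, a measure chosen after the shared pattern was seen. On this scale 5 of 10 members did not overlap between genotypes, near the 52.7% of the 12100 genes that did not overlap without it. Measured against the mean of the members, 17.2% of 12090 other genes did not overlap. That share is no like background, since the scale removes a shared spread from the members and adds it to genes that lack it. C1qb was higher in KO, at 0.72 and 0.93 in the KO libraries and 0.46 and 0.54 in the WT libraries. C1qc, at a difference of 0.19, and Mrc1, at 0.14, were also higher in both KO libraries. Cd163 was lower in KO, at -1.28 and -1.95 in the KO libraries and -0.97 and -1.10 in the WT libraries, a difference of -0.58, and Cd14 was lower by a log2 difference of -0.19. C1qa, Cd68, Csf1r, Lyz2 and Ctss overlapped. The C1q chains are 3 of the 10 genes that set this scale, so the differences are not independent of each other.

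The 5 other genes closest to the members' mean centred profile over the 4 libraries, among 12090 genes, were Clec4a3, Rtn1, Lcp1, Emr1 and Pld4. Their root-mean-square distances were 0.0220 to 0.0393 log2 units, against a median of 0.322 over the genes compared; among the members the distance was 0.0259 for Lyz2 and 0.338 for Cd163. Emr1, the older symbol of Adgre1, which encodes the mouse macrophage antigen F4/80, had 579 and 440.3 normalized counts in the KO libraries and 529.6 and 329.7 in the WT libraries. Lcp1, the leukocyte actin-bundling protein L-plastin, had 1085 and 863 in the KO libraries and 1049 and 701 in the WT libraries. Clec4a3 is a C-type lectin receptor gene of myeloid cells. None of the 5 passed the FDR in the authors' deposited table, the lowest being 0.946 for Emr1, and with 4 libraries the likeness is a description.

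Other macrophage genes had the same spread between libraries. Of 23 other macrophage and myeloid markers, 21 were higher in KO library 1 than in KO library 2 and 21 higher in WT library 1 than in WT library 2, with a median log2 ratio of 0.26. Examples that did not pass were Lgmn, a lysosomal protease, with 1574 and 1482 in KO and 1768 and 1319.7 in WT, and Sirpa, the receptor for CD47, with 1066 and 900.3 in KO and 853 and 719.9 in WT.

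Of 16 markers of tissue-resident macrophages, 2 rose, 0 fell and 14 did not pass, with a median log2 ratio of 0.20. Cbr2, a carbonyl reductase, had 795 and 843 normalized counts in the KO libraries and 557 and 477 in the WT libraries, and rose 1.58-fold (FDR 0.0122 in the authors' deposited table; limma adjusted p = 0.0524). Pf4, a chemokine best known from platelets, had 621 and 587 in the KO libraries and 386 and 376 in the WT libraries, and also rose 1.58-fold (FDR 0.0214 in the authors' deposited table; limma adjusted p = 0.046). Unlike the 10 members, both genes lay closer between libraries of a genotype than between genotypes. They are named because they passed the FDR, which favours such genes, so the contrast with the members follows from the choice. The larger difference within a genotype exceeded the log2 ratio for 60.6% of the 12100 genes. Of 9 blood monocyte markers 1 rose, with a median of -0.20: Vcan, the proteoglycan versican, which fibroblasts also make, had 1195 and 1019 in the KO libraries and 707 and 484 in the WT libraries (FDR 0.0154 in the authors' deposited table; limma adjusted p = 0.0775). Ccr2, the receptor that draws monocytes into tissue, did not pass, with 612 and 456 in KO and 566 and 320.1 in WT.

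**Figure D4:**
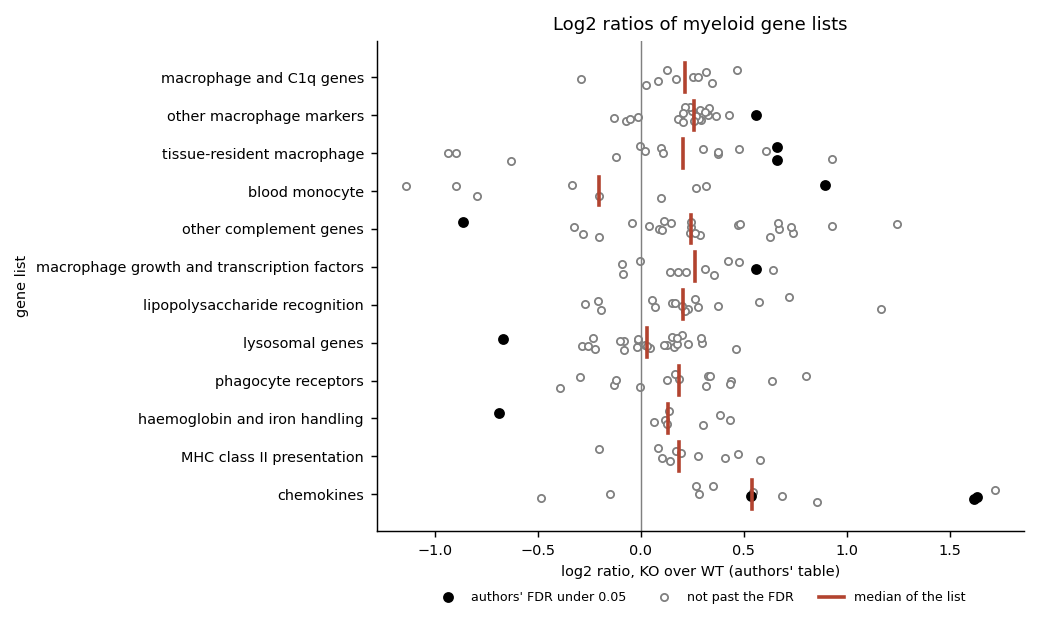
Log2 ratios of KO over WT in the authors' deposited table (x axis) for the genes of 12 myeloid gene lists (rows), with filled points for genes past an FDR of 0.05, open points for the others and a red bar at each list's median. All 10 macrophage and C1q genes in the top row are open points, with a median of 0.21.

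Of 31 other complement genes 24 were listed; 0 rose and 1 fell, with a median log2 ratio of 0.24. Masp1, a protease of the lectin pathway, which starts complement without C1q, had 123 and 99.0 normalized counts in the KO libraries and 219 and 186 in the WT libraries (log2 ratio -0.87, FDR 0.0481 in the authors' deposited table; limma adjusted p = 0.0767). The gene of the C1q-associated protease C1s, C1s1, had 3286 and 2610.1 in KO and 2597 and 2394 in WT and did not pass. Serping1, the inhibitor of C1r and C1s, had 5404 and 3719 in KO and 4609.6 and 3985 in WT. C3, the central component on which the pathways converge, had 1491 and 441 in KO and 1498 and 921 in WT, a wider spread within KO than between the means.

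The median log2 ratio of 12 growth factors, receptors and transcription factors of macrophages was 0.26. Csf1, the ligand of Csf1r, had 908 and 911 normalized counts in the KO libraries and 640.3 and 666 in the WT libraries, so both KO libraries lay above both WT libraries, with a log2 ratio of 0.48 and an FDR of 0.126 in the authors' deposited table (limma adjusted p = 0.0676). Il34, the other ligand of the receptor, had 370.5 and 342 in KO and 289 and 357 in WT. Of 16 listed genes of lipopolysaccharide recognition and its signalling, the pathway of Cd14, 0 passed, with a median of 0.21. Tlr4, the receptor, had 392 and 238 in KO and 314 and 224 in WT, and Lbp, which delivers lipopolysaccharide to CD14, had 927 and 582 in KO and 702 and 599.8 in WT.

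Of 25 lysosomal genes 0 rose and 1 fell, with a median log2 ratio of 0.03. Ctsf, the protease cathepsin F, had 924 and 763 normalized counts in the KO libraries and 1420.2 and 1266 in the WT libraries, a log2 ratio of -0.67 (FDR 0.00377 in the authors' deposited table; limma adjusted p = 0.0595). The abundant lysosomal genes Psap and Ctsd, which muscle fibres and other cells also express, had 21431 and 21593 (Psap) and 17234 and 16585 (Ctsd) in KO, and 22476 and 23647 (Psap) and 20098 and 19706 (Ctsd) in WT. Each of these genes was lower in both KO libraries than in either WT library, an order that no member had. Of 8 listed genes of haemoglobin and iron handling, the pathway downstream of Cd163, 1 fell: Slc40a1, the iron exporter ferroportin, had 686 and 757 in the KO libraries and 1239 and 1086 in the WT libraries (log2 ratio -0.69, FDR 0.003 in the authors' deposited table; limma adjusted p = 0.0475). Hmox1, which degrades heme, had 565 and 493 in KO and 593 and 370.1 in WT.

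Of 15 listed Fc, scavenger and lectin receptors of phagocytes 0 passed, with a median log2 ratio of 0.19; Axl, a receptor for dying cells, had 3548 and 2486 normalized counts in KO and 2544 and 1918 in WT, and Cd36, a fatty acid and scavenger receptor, 14984 and 11967 in KO and 18168 and 17254 in WT. Of 10 MHC class II presentation genes 0 passed, with a median of 0.18; Cd74, the invariant chain trimmed by cathepsin S, had 3752 and 3474 in KO and 4068 and 2763 in WT, and H2-Aa had 1949 and 1837 in KO and 2062 and 1368 in WT. Both shared the lowest library of the members, WT library 2.

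The largest folds among the called genes of these lists were those of the chemokines Ccl8 and Ccl2. Of 12 listed chemokines 3 rose, 0 fell and 9 did not pass, with a median log2 ratio of 0.54. Ccl8, a monocyte attractant made by resident macrophages, had 173 and 142 normalized counts in the KO libraries and 56.8 and 44.7 in the WT libraries, and rose 3.10-fold (FDR 1.04e-04 in the authors' deposited table; limma adjusted p = 0.038). Ccl2, the ligand of Ccr2, had 61.7 and 70.1 in the KO libraries and 24.9 and 18.1 in the WT libraries, and rose 3.07-fold (FDR 0.0329 in the authors' deposited table; limma adjusted p = 0.062). Ccl11, an eosinophil attractant that fibroblasts also make, had 1106 and 1009 in the KO libraries and 779.9 and 679.5 in the WT libraries, and rose 1.45-fold (FDR 0.0485 in the authors' deposited table; limma adjusted p = 0.0719). For all 3 both KO libraries lay above both WT libraries, which passing the FDR favours and which held for 24.6% of the 12100 genes with a mean of at least 50.

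Markers of other cells of muscle were compared in the same libraries. Of 5 fibroblast markers 1 rose, with a median log2 ratio of 0.39: Dpt, an extracellular matrix protein, had 5437 and 4677 normalized counts in the KO libraries and 3708 and 3385 in the WT libraries (FDR 0.0185 in the authors' deposited table; limma adjusted p = 0.0972). Of 6 endothelial markers 1 fell, with a median of -0.19: Kdr, the VEGF receptor, had 5150.2 and 4779 in the KO libraries and 7757 and 6792 in the WT libraries (FDR 0.00782 in the authors' deposited table; limma adjusted p = 0.0896). Of 6 muscle fibre markers Myh4, the fast 2B myosin, rose, with 444884 and 373640.0 in the KO libraries and 232372 and 277492 in the WT libraries (FDR 0.0113 in the authors' deposited table; limma adjusted p = 0.172).

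The summed normalized counts of 7 adipocyte markers were 23023 and 15742 in the KO libraries and 16425 and 17662 in the WT libraries, and those of 4 Schwann cell markers were 22069 and 10600.1 in the KO libraries and 7465 and 7917 in the WT libraries, with 0 genes past the FDR in either list. KO library 1, which was highest for 8 of the 10 members, was thus also highest for fat and nerve markers, while the WT libraries, which differed for every member, had similar sums of both. Mast cell markers had the members' spread within genotypes: all 6, among them Kit, the stem cell factor receptor, and Cma1, a mast cell chymase, were higher in library 1 of both genotypes, with sums of 2017 and 1360.2 in KO and 1808 and 1419 in WT and 0 past the FDR. The 5 fibroblast markers were likewise all higher in library 1 of both genotypes. The part of any of these cells in the members' values was not tested. The 5 listed T cell markers summed to 89.9 and 86.6 in the KO libraries and 132 and 106 in the WT libraries, the 5 B cell markers to 112 and 117 in KO and 171 and 191 in WT, and the 5 listed of 11 neutrophil markers to 278 and 256 in KO and 149.6 and 208 in WT, with 0 genes past the FDR in each. These sums are small beside the members' own, 9613 to 16112.5.

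**Figure D5:**
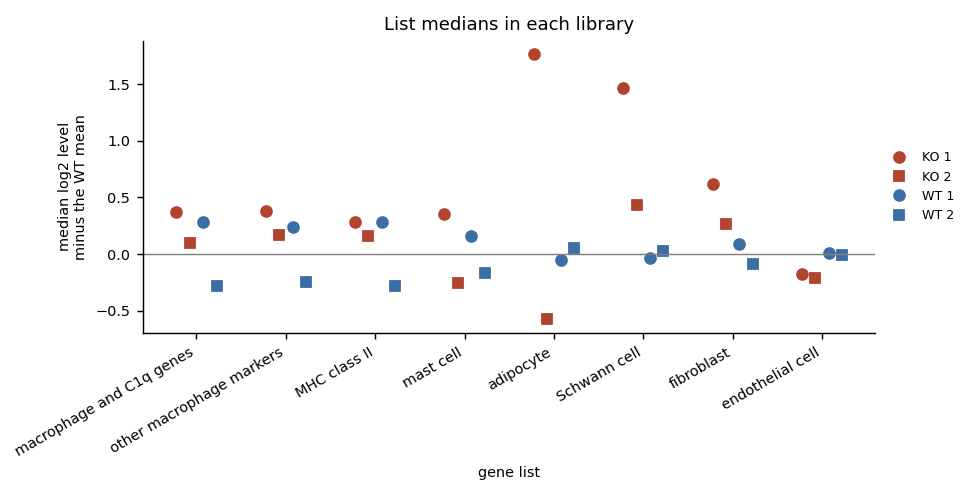
Median log2 level of each gene list minus its WT mean (y axis) for macrophage and C1q genes and 7 comparison lists (x axis), in KO library 1 and 2 (red) and WT library 1 and 2 (blue). The macrophage and C1q genes were at 0.37 and 0.10 in KO and 0.28 and -0.28 in WT, a spread shared by other macrophage markers and not by the adipocyte, Schwann and endothelial lists, whose WT libraries lie close together.

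The authors also deposited a table of upstream regulators from the Ingenuity pathway program, which scores a regulator by the direction of its known targets. Of 608 regulators, 33 were marked activated and 21 inhibited, and CD14 was the 1 member listed. CD14 was marked activated in the authors' deposited table, with an activation score of 2.219, a bias-corrected score of 1.182 and a p-value of overlap of 0.00232, resting on 5 targets. Of these targets 3 passed the FDR: Ccl2 (above), Cish, a target of cytokine signalling through STAT5, with 1771 and 2401 normalized counts in KO and 159.6 and 395 in WT, and Socs1, another feedback inhibitor of cytokine signalling, with 159.8 and 123 in KO and 66.8 and 65.9 in WT. The Cd14 transcript itself, at 153 and 112 in the KO libraries and 151 and 111 in the WT libraries, had a log2 ratio of 0.03 (FDR 1) in the authors' deposited table. The growth factor CSF1 was also marked activated in the authors' deposited table, with a score of 2.791, a bias-corrected score of 2.04 and a p-value of overlap of 7.69e-04 over 8 targets, of which Ccl2 alone passed the FDR. TLR4, to which CD14 hands lipopolysaccharide, was given no predicted state in the authors' deposited table. Its activation score was 1.035 and its bias-corrected score -0.196, with a p-value of overlap of 0.0345 over 12 targets. None of the 10 members was among the targets of CD14 or CSF1 or passed the absolute log ratio of 0.95 that the program's input required, per the file headers.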

How the data were processed

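The deposited gene table holds a mean signal for each genotype (its normalized read counts, averaged by the authors), the log2 ratio, and a p-value with its FDR. The authors used DESeq, as the table's name says, and genome build mm10, per the submitters' processing notes; the aligner and counting program are not named there. The deposited regulator table holds an activation score and an overlap p-value, made by the authors at a log2 ratio limit of 0.95, per the file headers. No counts per sample were used as deposited: each mean was solved for whole counts of 2 libraries (tolerance 1e-13), with 1 solution for 14617 of 14617 genes; 1 step explained 3.85% of low values in KO and 8.75% in WT, and 2 steps 100%. Which 2 of the 3 mice these are is not stated, so a p-value reflects only how far these libraries vary. The KO libraries differed in Y transcripts (Ddx3y 0 and 2738 counts), so they were not repeats of 1 sample. For the WT libraries the variation may be technical. The deposited FDR differed from a recomputed adjustment by at most 0.000136; FDR under 0.05 is the main call. limma 3.58.1 (R 4.3.3; trend, robust, mean of at least 10, pseudocount 1, two-sided, Benjamini-Hochberg) was fitted to the recovered values and tested on simulated data; the pseudocount understates changes of low genes. Wilson intervals cover counting error only, and reads without molecular identifiers are not independent molecules. The limma intervals rest on the variation between libraries. Levels per kilobase used GENCODE M21 principal transcripts. All 10 members and the genes of other lists past the FDR are named (a gene that is no member is not reported here), with the most abundant genes as examples otherwise, and the 5 genes nearest in profile; Lgmn, Sirpa, Ccr2, C1s1, Serping1, C3, Csf1, Il34, Spi1, Tlr4, Psap, Ctsd, Hmox1 and the neighbouring genes were added after their values were seen. The members, lists and tests were chosen with earlier results of these data known. Alternatives were other pseudocounts, filters and scalings and leaving out each library. Of the deposited genes, 1 line was not used here.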

Additional observations from a re-analysis of the deposited data

How the results depend on the processing

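The number of the 10 genes past the threshold was 0 under every alternative run: other pseudocounts, a mean of at least 50 or no filter, scaling by total counts, upper quartile or quantiles, no robust moderation, and each library left out in turn. The lowest adjusted p from limma among them lay between 0.133 (without WT library 1) and 0.590 (without WT library 2), against 0.242. The number of genes called over the whole table ranged more widely, 11 without WT library 1 and 381 without KO library 2 (27 without robust moderation), against 125. With each library left out in turn, the median log2 ratio of the 10 genes ranged between -0.13 (without WT library 2) and 0.60 (without WT library 1); it was 0.26 scaled by total counts or by upper quartile, against 0.21. Of the 10 genes, 5 changed sign without WT library 2, 3 without KO library 1 and 1 each without KO library 2 and WT library 1, and 0 under the scalings, which moved the median of all genes by at most 0.05. Without WT library 1, 7 of the 10 had an unadjusted limma p under 0.05, against 11.9% of genes. Of the genes of other lists named as past the authors' FDR, limma called 3 (Pf4, Ccl8 and Slc40a1). Without robust moderation their limma adjusted p was 0.0628, 0.0540 and 0.0654. Slc40a1 was also not called when scaled by total counts (0.0597), upper quartile (0.0559) or quantiles (0.0552). Cbr2 was called by limma with no filter (0.0487) or scaled by upper quartile (0.0453). Each named gene had the same sign in limma, and none changed sign with a library left out. The cause of the lost calls was not tested. Leaving out a library leaves 1 in its genotype, which is then assumed to vary like the other genotype. No paired analysis was possible because the columns of means carry no replicate number. With 2 libraries per genotype, the members' standard errors of 0.18 to 0.438 log2 units set what could be detected.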

Other observations

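The 6 dendritic cell markers summed to 404 and 324 in KO and 393 and 346 in WT, and the 2 listed eosinophil markers to 39.0 and 9.28 in KO and 38.9 and 11.7 in WT, with 0 past the FDR in both lists. Osteoclast markers, 6 genes of another cell of the myeloid line, went the other way within WT, where 0 of 6 were higher in library 1, with sums of 1479 and 1323 in KO and 976 and 1779 in WT. Alas2, the 1 listed of 7 red blood cell markers, had 1245 and 794 normalized counts in KO and 699 and 817 in WT.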
